A study of Mus musculus with 36 samples.

Results

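The comparison described here set Pax5 K198R against wild-type Pax5 (Pax5WT) in mouse Sirt7-/- pro-B cells, with 2 RNA-seq libraries for each form. Its members were the genes that reached a normalized count of 10 in 2 or more of these 4 libraries, which held for 13235 of the 18721 genes listed in the table of this experiment. The cells came from bone marrow of 129Sv mice with a germline deletion of Sirt7 and were sorted as B220+ IgM- B lineage progenitors without other lineage markers. They were grown on OP9 stromal feeder cells that had been stopped from dividing with mitomycin C, with IL-7, SCF and FLT3-L at 10 ng/ml each, infected with a retroviral vector carrying Pax5 and sorted by the vector's marker. The same table holds 2 libraries of Sirt7-/- cells and 2 of wild-type cells that received the empty vector (EV). All 4 groups thus carried a vector and kept their own Pax5 gene, so that both forms were added on top of the endogenous protein.

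Pax5 is the transcription factor that commits lymphoid progenitors to the B lineage. It activates genes of the B cell receptor complex and its signalling and represses genes of other lineages. SIRT7 is a nuclear NAD+-dependent deacetylase, and the lysine named in K198R is the residue of Pax5 that the study identified as its substrate. Arginine keeps the positive charge of lysine and cannot be acetylated, and K198R therefore stands in for the protein that SIRT7 has deacetylated. The question of the comparison was therefore what the deacetylation mimic did in these cells that wild-type Pax5 did not.

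Stretches of the mouse genome (GRCm38/mm10) around 3 genes are printed here because the results below return to them. The first is the 101 bases around the summit of the K198R peak upstream of Zfpm1, the gene with the smallest p-value of all. The second is the same window of a peak in an intron of Scin, another called gene, with the letters GCGTGAC, a core of the sequences Pax5 recognizes, in capitals. The third is 61 bases upstream of the start of Hmgcs1, a cholesterol synthesis gene, with the letters TCACCCCAC, as found in sterol regulatory elements, in capitals.
Zfpm1, chr8:122281378-122281478, + strand: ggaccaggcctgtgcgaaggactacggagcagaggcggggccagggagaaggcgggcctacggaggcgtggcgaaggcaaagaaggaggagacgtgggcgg
Scin, chr12:40102582-40102682, - strand: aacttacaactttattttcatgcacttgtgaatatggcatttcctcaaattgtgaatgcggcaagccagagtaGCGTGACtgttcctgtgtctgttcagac
Hmgcs1, chr13:119690188-119690248, + strand: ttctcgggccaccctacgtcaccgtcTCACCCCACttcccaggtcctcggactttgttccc

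The RNA values were counts per gene that the authors had normalized between libraries, and each of the 8 libraries summed to between 27814214 and 30160880 of them. Read depth could not be recovered from these values, so precision rests on the spread between libraries. The study's methods state that replicates were made on different days and count a mouse as a replicate in experiments with mice. The labels do not say whether the 2 libraries of a group came from separate mice or cultures, and the p-values measure the spread between these libraries only. On the log2 scale the K198R libraries differed from each other by a root mean square of 0.55 over genes and the Pax5WT libraries by 0.60. Libraries of different forms with the same number were about as close, at 0.61 for the libraries numbered 1 and 0.56 for those numbered 2. Pro-B identity was seen in all 4 libraries, with Igll1, the surrogate light chain gene, at 43214 and 38070 normalized counts with K198R and at 40402 and 34300 with Pax5WT, and Ebf1, a B lineage transcription factor gene, at 7322 and 8370 against 8458 and 9980.

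Total Pax5 RNA was similar with both forms. Pax5 had 38690 and 45426 normalized counts in the K198R libraries and 43024 and 43260 in the Pax5WT libraries, against 25995 and 37114 with EV in Sirt7-/- cells and 23862 and 27134 with EV in wild-type cells. The K198R values enclosed those of Pax5WT, and the log2 fold change between the forms was -0.04 (SE 0.177, adjusted p = 0.999). Transcripts of the vector and of the endogenous gene could not be told apart, and protein was not measured in these files. The study reports that in a transfected cell line K198R protein was more abundant than Pax5WT and had a longer half-life. Similar RNA therefore does not show similar amounts of Pax5 protein, and amount and activity of the protein cannot be told apart here. Sirt7 had 325 and 355 normalized counts with K198R, 407 and 325 with Pax5WT, 336 and 387 with EV in Sirt7-/- cells and 1324 and 905 in wild-type cells. The 3 groups labelled Sirt7-/- thus all lay below wild type, and the counts that remained do not show which part of the gene they came from.

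**Figure D1:**
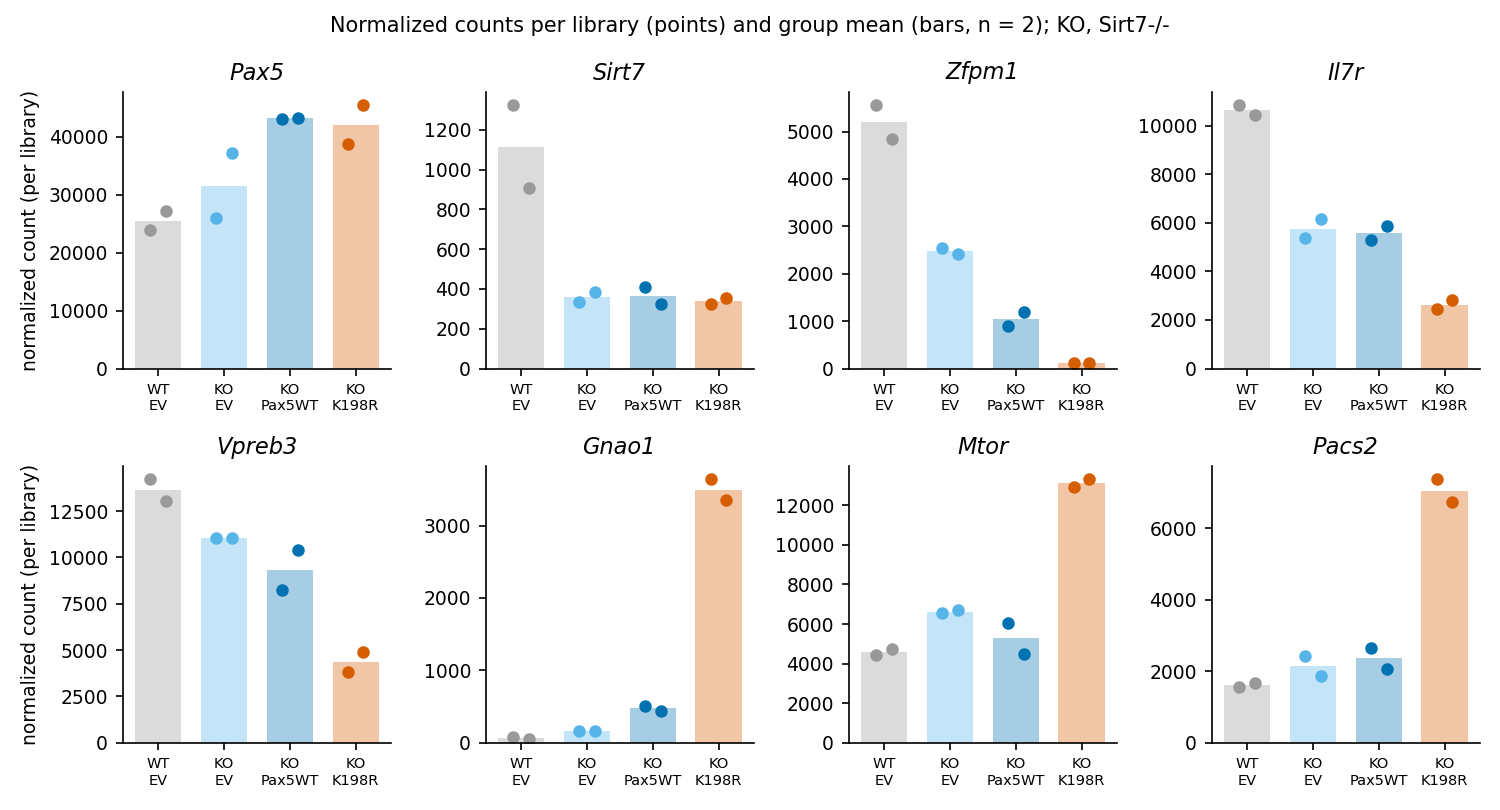
Normalized counts of 8 genes in each of the 8 libraries (points) with the group mean (bars, n = 2), for wild-type cells with EV and Sirt7-/- cells (KO) with EV, Pax5WT or K198R. Pax5 and Sirt7 are alike between the forms, whereas Zfpm1, Il7r and Vpreb3 are lower and Gnao1, Mtor and Pacs2 higher in both K198R libraries than in both Pax5WT libraries.

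K198R changed the level of 59 genes against Pax5WT at an adjusted p under 0.05 (limma with Benjamini-Hochberg adjustment). Of these 18 rose, 0.136% of the genes tested, and 41 fell, 0.310%. The genes that fell included Zfpm1, which encodes the GATA cofactor FOG1, the IL-7 receptor gene Il7r and Vpreb3, whose product binds immunoglobulin mu chains, and those that rose included Gnao1, the G protein subunit alpha-o, and Mtor, the growth-controlling kinase. In all 59 the libraries of the forms did not overlap, as was the case for 20.0% of all genes tested towards higher and 17.6% towards lower values. The calls were made on these same values, so the lack of overlap is no further evidence for them. At an unadjusted p under 0.05 there were 564 genes higher, 4.26%, and 597 lower, 4.51%. The median log2 fold change of all genes tested was 0.01. Among the called genes 5, Rtn4rl2, Gpr65, Xlr4b, Xlr3a and Gm6361, were under 10 normalized counts in both libraries of one form. They passed the filter through the other form, as 170 genes did in all. The calls rested on all libraries of the fit. Leaving out 1 of the 4 libraries at a time kept the direction of all 59 and left between 1 and 9 genes called higher and between 1 and 6 called lower, with Zfpm1 and Gm6361 called each time. Without the first Pax5WT library 9 were called higher and 4 lower, and without the second 7 and 6, so that the excess of lower calls did not hold without either. A fit of these 4 libraries alone called 3 higher and 5 lower. Near the threshold lay Dpp4 inside (adjusted p = 0.0474) and Adgra3 outside (adjusted p = 0.0507, log2 fold change -1.37).

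**Figure D2:**
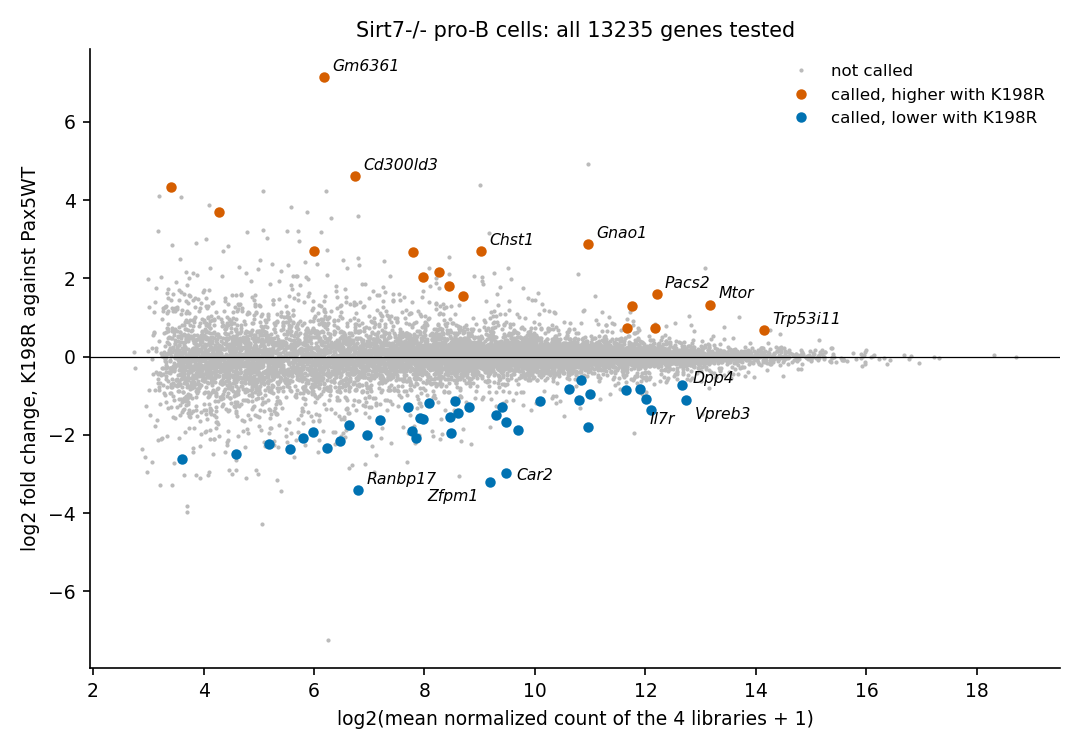
Log2 fold change of K198R against Pax5WT for each of the 13235 genes tested, against log2 of the mean normalized count of the 4 libraries plus 1. Called genes are in orange (18 higher) and blue (41 lower). At high counts smaller changes passed the test, such as a log2 fold change of 0.68 for Trp53i11, and many uncalled genes at low counts have changes as large as those of called ones.

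Zfpm1 had the smallest p-value of all genes. FOG1 binds GATA factors and is best known in erythroid, megakaryocyte and T cells. Its gene (chr8:122282141-122337251) had 113 and 111 normalized counts with K198R and 899 and 1195 with Pax5WT, 2537 and 2418 with EV in Sirt7-/- cells and 5556 and 4836 with EV in wild-type cells. None of the 4 groups overlapped, and the level was lower from each to the next in the order wild type, Sirt7-/-, Pax5WT, K198R. K198R stood 9.19-fold below Pax5WT on the scale of log2 of the normalized count plus 1, on which all fold changes here were computed (log2 fold change -3.20, SE 0.154, adjusted p = 0.000542). Both the Sirt7-/- cells with EV against wild type (log2 fold change -1.06, adjusted p = 0.0371) and K198R against EV (-4.46, adjusted p = 4.2e-05) passed the test, and Pax5WT against EV did not (-1.26, adjusted p = 0.083). The gene model Gm20388 overlaps Zfpm1, and reads shared between them could be split either way.

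The genes that fell with K198R were read by what their products do, a grouping made with the values known. Of cytokine and receptor genes, Il7r, whose product receives the survival signal of pro-B cells, had 2431 and 2834 normalized counts with K198R against 5301 and 5873 with Pax5WT (log2 fold change -1.09, SE 0.117, adjusted p = 0.0190). With EV it was at 5361 and 6155 in Sirt7-/- cells, within the range of the Pax5WT libraries or just above it, and at 10843 and 10445 in wild-type cells. The alarmin Il33 fell from 242 and 154 to 57 and 39 normalized counts (log2 fold change -2.01, adjusted p = 0.0343), and Tnfsf8, the CD30 ligand, from 448 and 295 to 105 and 69 (-2.08, adjusted p = 0.0350). Bmpr1a, a type I BMP receptor, had 353 and 333 normalized counts with Pax5WT, but 86 and 95 with K198R and 122 and 91 with EV in Sirt7-/- cells, so that the Pax5WT libraries stood above both other groups. The surface protein genes Ly9 (a SLAM family receptor), Gpr65 (a proton-sensing receptor), Antxr2, Adgrf1 and Dpp4 (a cell-surface peptidase also called CD26) fell as well. Among these Ly9 had the smallest p-value, with 363 and 333 normalized counts against 1104 and 1501 (log2 fold change -1.89, adjusted p = 0.0146), and Dpp4 the highest level, with 4476 and 5355 against 8411 and 7738 (-0.72, adjusted p = 0.0474).

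Vpreb3 had 3822 and 4876 normalized counts with K198R and 8267 and 10419 with Pax5WT (log2 fold change -1.10, SE 0.150, adjusted p = 0.0343). Its EV levels were 11064 and 11028 in Sirt7-/- cells and 14215 and 13042 in wild-type cells, and both K198R libraries lay below all others. Of 14 tested genes of the surrogate light chain and pre-B cell receptor signalling it was the only one called, and of 18 genes that Pax5 is known to activate in B cells also the only one. Of those 18, 9 lay above 0 and 9 below, with a median log2 fold change of 0.06 against 0.01 for all genes. Cd79a, which encodes a signalling chain of the B cell receptor, was at 39232 and 43351 normalized counts against 30767 and 30373 (log2 fold change 0.43, adjusted p = 0.150).

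Several genes that fell encode proteins of the cytoskeleton and of membrane traffic. Scin, which encodes the actin-severing protein scinderin, had 46 and 43 normalized counts with K198R, 161 and 143 with Pax5WT, 1009 and 796 with EV in Sirt7-/- cells and 224 and 173 in wild-type cells (log2 fold change -1.75, SE 0.224, adjusted p = 0.0262). It was the reverse of Zfpm1 in the EV groups, where Sirt7-/- cells had the higher level. The actin nucleator gene Fmn2 had a log2 fold change of -2.08 (adjusted p = 0.0391), the kinesin gene Kif17 of -2.16 (adjusted p = 0.0388), Dnm3, a dynamin, of -2.37 (adjusted p = 0.0262) and the exchange factor gene Dock8 of -1.30 (adjusted p = 0.0160). Dock8 had 409 and 371 normalized counts with K198R, 1024 and 896 with Pax5WT and 2002 and 2111 with EV in Sirt7-/- cells. Hook1, Ehd3, Marcks and the calpain subunit gene Capn2 fell too. Kif17 (chr4:138250435-138301967) and Sh2d5 (chr4:138250403-138261332), both called lower, overlap on the same strand, so that their reads could be assigned to either.

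The carbonic anhydrase genes Car2 and Car3, which lie near each other on chromosome 3, both fell. Car2 had 212 and 113 normalized counts with K198R, 1496 and 1011 with Pax5WT, 1745 and 3086 with EV in Sirt7-/- cells and 4991 and 6791 in wild-type cells (log2 fold change -2.98, SE 0.371, adjusted p = 0.0248). Car3 had 64 and 78 with K198R and 235 and 203 with Pax5WT (-1.62, adjusted p = 0.0227). Ranbp17, a member of the importin-beta family of nuclear transport receptors, showed the largest decrease of all called genes, from 250 and 154 normalized counts to 25 and 12 (log2 fold change -3.42, SE 0.422, adjusted p = 0.0248). Slc16a14, of the monocarboxylate transporter family, had 23 and 25 normalized counts against 135 and 116, and Trmt9b, related to tRNA methyltransferases, had 11 in both K198R libraries against 76 and 44. Ifi209, of the interferon-inducible PYHIN family, had 163 and 128 against 556 and 572 (log2 fold change -1.96, SE 0.157, adjusted p = 0.00774), and the collagenase gene Mmp13 had 23 and 28 against 104 and 95 (-1.92, adjusted p = 0.0195). The other genes called lower were Tifa, Rgs2, Wdfy3, St7, Ppic, Dap, Drc7, Selenop, Tarbp1, Klhl6, Zfp760 and Plod2, with log2 fold changes from -1.58 for Wdfy3 to -0.61 for Plod2.

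Of the genes that rose, Gnao1 had the smallest p-value among those with a level above 0 in every library. It had 3636 and 3354 normalized counts with K198R, 514 and 434 with Pax5WT, 169 in both libraries with EV in Sirt7-/- cells and 79 and 49 in wild-type cells, a 7.39-fold difference between the forms (log2 fold change 2.88, SE 0.237, adjusted p = 0.00774). Chst1, which encodes a sulfotransferase of keratan sulfate, had 989 and 814 against 119 and 160 (log2 fold change 2.69, adjusted p = 0.0195), and Sel1l3 had 290 and 481 against 62 and 54 (2.67, adjusted p = 0.0391). These 3 genes shared an order of the groups in which wild-type cells with EV were lowest, followed by Sirt7-/- cells with EV, Pax5WT and K198R. Ext1, which encodes an enzyme that builds heparan sulfate, was alike in the other 3 groups, between 195 and 268 normalized counts, and at 552 and 690 with K198R (log2 fold change 1.55, SE 0.198, adjusted p = 0.0262).

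Mtor had 12903 and 13307 normalized counts with K198R against 6057 and 4493 with Pax5WT, 6550 and 6693 with EV in Sirt7-/- cells and 4416 and 4731 in wild-type cells, so that both K198R libraries lay above the other 6 (log2 fold change 1.33, SE 0.139, adjusted p = 0.0174). Pacs2, which encodes a sorting protein of the endoplasmic reticulum and mitochondria, had 7371 and 6733 normalized counts against 2659 and 2060 (log2 fold change 1.59, adjusted p = 0.0174), and Nt5c2, a cytosolic nucleotidase, had 5082 and 4650 against 2356 and 1674 (1.29, adjusted p = 0.0245). Mt1, the metal-binding protein metallothionein 1, had 537 and 457 against 92 and 132 (2.15, adjusted p = 0.0245). Itpr3, a calcium release channel, and Trp53i11 rose by under 2-fold at high levels, Trp53i11 from 14130 and 13815 normalized counts to 21672 and 23204. Dmwd had 402 and 403 normalized counts against 89 and 107, Cgnl1 had 429 and 663 against 159 and 145, and Rps6kl1 had 119 and 102 against 20 and 13.

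A further 4 genes called higher have close copies in the genome, and their values are uncertain because the authors' quantification could split reads between copies. Gm6361, a processed pseudogene, was listed at 0 in both Pax5WT libraries, at 116 and 169 normalized counts with K198R and at 155 and 190 with EV in Sirt7-/- cells. Its K198R level was thus close to that of EV, and it was the Pax5WT libraries that stood apart. Xlr3a was also listed at 0 in both Pax5WT libraries, with 20 and 18 normalized counts with K198R, and Xlr4b had 0.78 and 3.3 against 37 and 32. Xlr3a and Xlr4b belong to a cluster of related genes on chromosome X. Cd300ld3, one of a family of neighbouring myeloid receptor genes on chromosome 11, had 136 and 273 normalized counts against 4.0 and 12 (log2 fold change 4.61, SE 0.645, adjusted p = 0.0388).

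**Figure D3:**
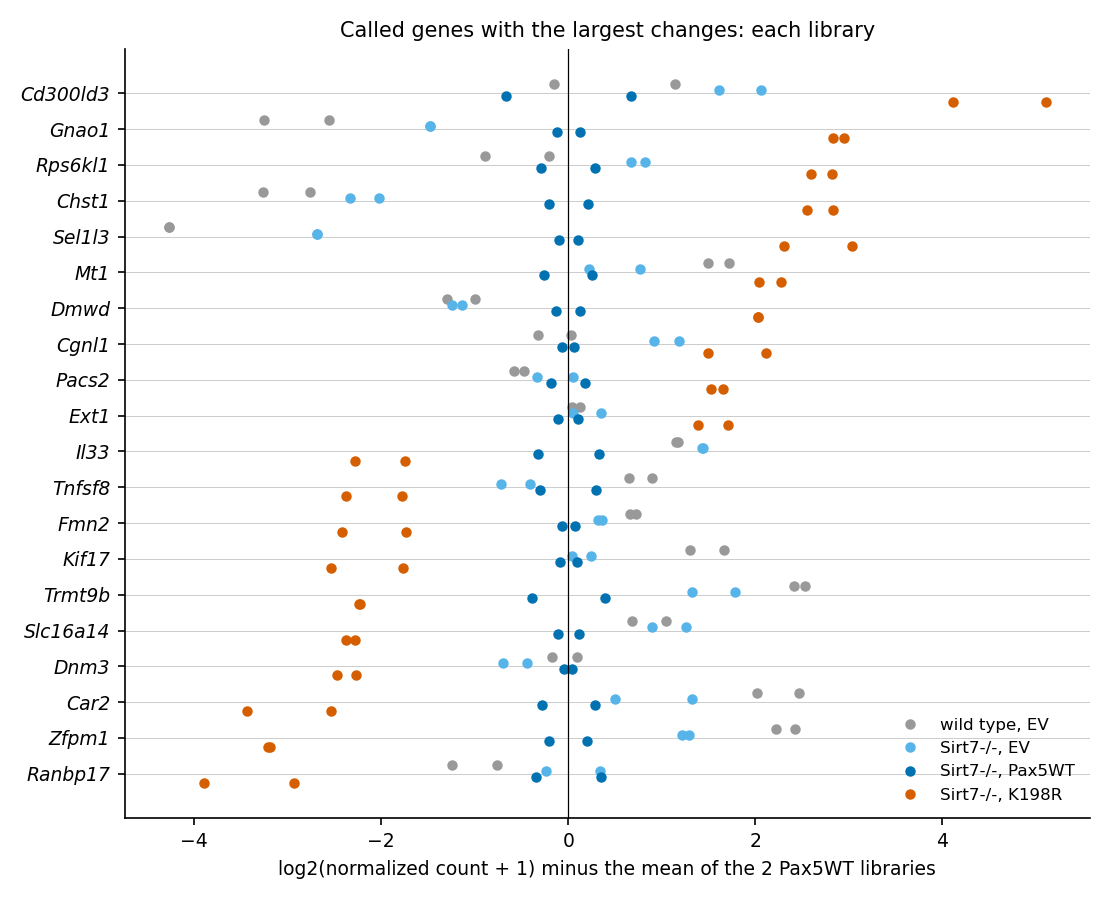
The 10 called genes with the largest increase and the 10 with the largest decrease, as log2(normalized count + 1) in each library minus the mean of the 2 Pax5WT libraries, with 4 groups of 2 points per gene. The K198R points (orange) lie beyond the Pax5WT points (dark blue) on one side in each gene, while the EV points (grey for wild type, light blue for Sirt7-/-) lie on either side of Pax5WT.

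Each form was also set against EV in Sirt7-/- cells in the same fit. These comparisons share libraries with that between the forms, and the values are given side by side. K198R against EV called 281 genes higher, 2.12% of those tested, and 337 lower, 2.55%, whereas Pax5WT against EV called 0 higher and 4 lower at an adjusted p under 0.05 with limma, with unadjusted p-values under 0.05 for 738 higher and 555 lower genes. The 41 genes that fell with K198R against Pax5WT had a median log2 fold change of -1.69 for K198R against EV and of -0.28 for Pax5WT against EV. For the 18 that rose, these medians were 1.51 and -0.27.

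**Figure D4:**
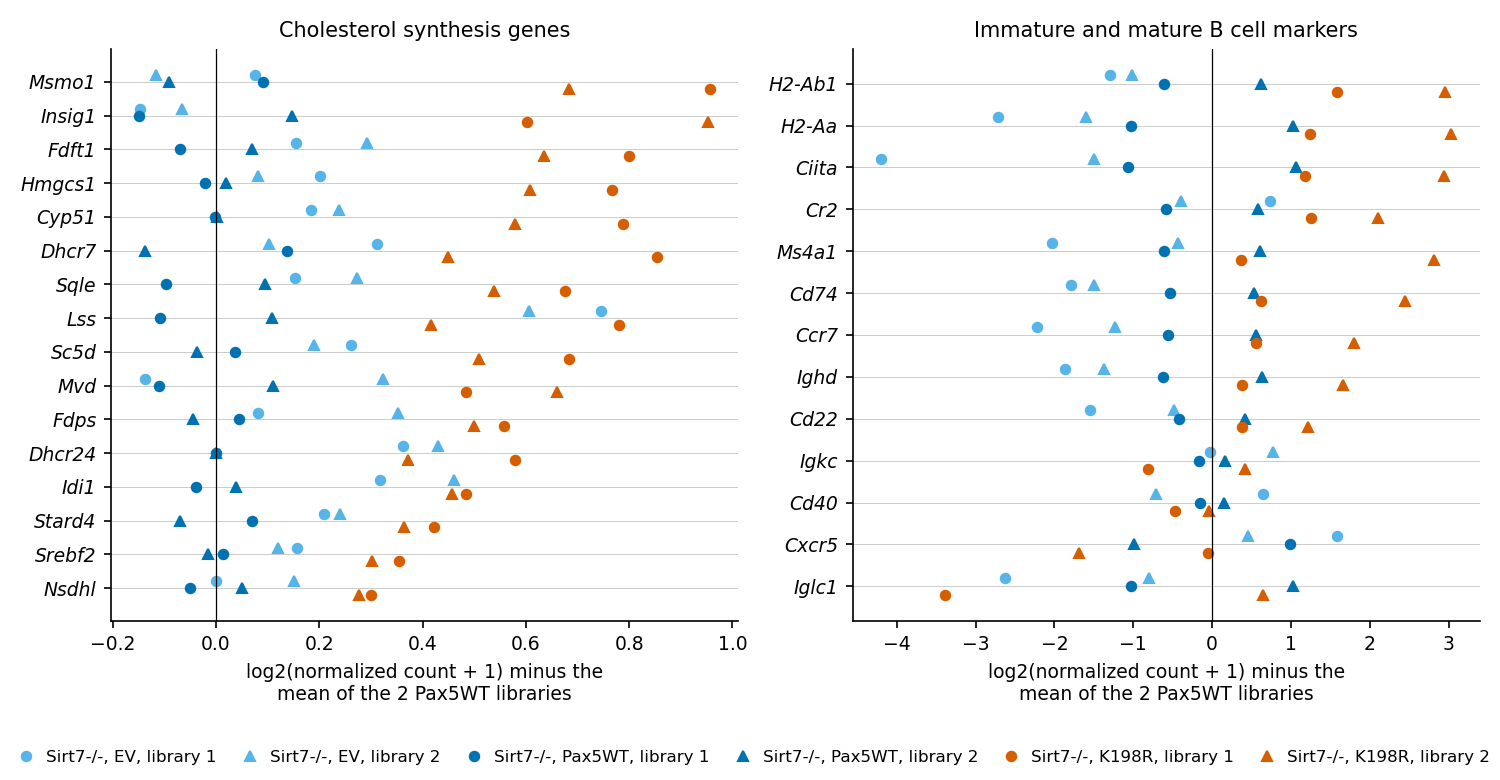
Cholesterol synthesis genes (left, 16 of 18) and immature and mature B cell markers (right, 13) as log2(normalized count + 1) in each library minus the mean of the 2 Pax5WT libraries. In these cholesterol genes both K198R libraries (orange) lie above both Pax5WT libraries (dark blue), while on the right the libraries numbered 2 (triangles) mostly lie above those numbered 1 (circles) within each form.

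All 18 genes listed for cholesterol synthesis and its control were higher in both K198R libraries than in both Pax5WT libraries, beside 20.0% of all genes tested. Of these 17 had an unadjusted p under 0.05, against 4.26% of all genes. Their log2 fold changes included 0.29 for Nsdhl and 0.82 for Msmo1, with a median of 0.60 against 0.01 for all genes tested. The list was chosen with earlier results of these data known, so these shares are no independent test. Hmgcs1, which makes HMG-CoA at an early step of the pathway, had 6068 and 5432 normalized counts with K198R, 3515 and 3616 with Pax5WT, 4099 and 3773 with EV in Sirt7-/- cells and 3188 and 4306 in wild-type cells (log2 fold change 0.69, SE 0.146, adjusted p = 0.121). Insig1, which holds the sterol-sensing machinery in the endoplasmic reticulum, had 5915 and 7540 against 3517 and 4317 (0.78, adjusted p = 0.0887), and Sqle, a sterol synthesis enzyme, had 4528 and 4120 against 2653 and 3030 (0.61, adjusted p = 0.193). The regulator gene Srebf2, whose product drives the pathway when sterols are low, had 11880 and 11457 against 9385 and 9200 (0.33, adjusted p = 0.200). Against EV in Sirt7-/- cells the list's median was 0.42 with K198R and -0.21 with Pax5WT. The Hmgcs1 stretch printed above holds one match to TCACNCCAC, searched on both strands of 300 bases around gene starts in a RefSeq table (GRCm38.p6). Of 13 starts that matched this list 1 held it, 7.69%, against 1.14% of the 12592 starts of genes tested. The share of the list thus rests on Hmgcs1 alone. Of the starts of called genes, 0 of 20 for higher and 0 of 38 for lower genes held it. A role of this sequence was not tested.

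Other lists held few called genes. Of 19 genes of the IL-7 receptor and STAT5 pathway, Il7r fell and no other was called. Pim1, a kinase gene induced by STAT5, had 6719 and 6442 normalized counts with K198R against 12407 and 10767 (log2 fold change -0.81, adjusted p = 0.0620), and the median of the list was 0.00. Of 14 genes of V(D)J recombination, which assembles antigen receptor genes, none was called and 4 were lower at an unadjusted p under 0.05, beside 4.51% of all genes. Without the first K198R library, or without the second Pax5WT library, 2 were lower at that p. Rag1, a subunit of the recombinase, had 1037 and 1903 normalized counts with K198R, 4212 and 7070 with Pax5WT and 2068 and 5055 with EV in Sirt7-/- cells (log2 fold change -1.96, SE 0.468, adjusted p = 0.165), and Rag2, the other subunit, had 465 and 790 against 1043 and 1245 (-0.91, adjusted p = 0.423). The groups did not overlap in either gene.

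Among 22 transcription factors of early B lineage cells none was called. Foxo1, which activates Rag1 and Rag2 transcription, had 3134 and 2905 normalized counts with K198R against 4496 and 4034 (log2 fold change -0.50, adjusted p = 0.165), and Irf4 had 4917 and 4714 against 6036 and 7735 (-0.51, adjusted p = 0.221). Of 15 p53 target genes 13 lay below 0, beside 6371 of all 13235 genes, and none was called. Their median was -0.36, and 3 were lower at an unadjusted p under 0.05, beside 4.51% of all genes. Without the first K198R library the median was -0.20 and 0 were lower at that p, without the second 6 were, and without the first Pax5WT library 1 was. Zmat3, a p53-induced RNA-binding protein gene, was at 3172 and 3739 against 5369 and 4920 (-0.58, adjusted p = 0.307). Genes of DNA replication (24) and mitosis (20) had no called member and medians of 0.00 and 0.01. The 22 interferon-stimulated genes had a median of 0.03, with Gbp7, a guanylate-binding GTPase gene, at 2636 and 3066 normalized counts against 5199 and 4453 (-0.76, adjusted p = 0.0538). None of the 16 homing genes was called. Of 6 plasma cell genes tested none was called either, with the antibody secretion gene Mzb1 at 1284 and 1194 against 2093 and 1575 (-0.55, adjusted p = 0.219). Lists of BCL2 family, DNA methylation, ER stress, ERK feedback, Myc and G1, acetyltransferase and deacetylase, glucose uptake, sirtuin and sex-linked genes held no called gene, and of 13 pro-B cell markers Il7r alone was called.

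Markers of immature and mature B cells had the highest median of the lists, 1.18 over 13 genes, and no called gene. A fit with the replicate number as a block, described below, called 4 of the 13 higher. H2-Ab1, an MHC class II chain gene, had 673 and 1743 normalized counts with K198R, 145 and 342 with Pax5WT and 90 and 110 with EV in Sirt7-/- cells (log2 fold change 2.28, SE 0.514, adjusted p = 0.144), and Cd74, the invariant chain gene, had 3255 and 11547 against 1455 and 3056 (1.54, adjusted p = 0.405). The groups did not overlap in these genes, but the second library of each form had the higher value. In Ms4a1, which encodes CD20, they did overlap, with 310 and 1699 normalized counts against 158 and 367. The median ran from 0.38 to 1.81 when single libraries were left out, whereas that of the cholesterol list stayed between 0.52 and 0.68. In bulk RNA, more cells of a later stage and more RNA per cell cannot be told apart.

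The study names Cxcr5, Tet1, Nfatc2 and Cyyr1 for this experiment, and none was called between the forms. Cxcr5, a follicle homing receptor gene, had 333 and 107 normalized counts with K198R, 689 and 174 with Pax5WT and 1045 and 477 with EV in Sirt7-/- cells (log2 fold change -0.87, adjusted p = 0.933). Tet1, a DNA demethylase gene, had 125 and 78 against 161 and 61 (-0.01, adjusted p = 0.999), and Nfatc2, a T cell transcription factor gene, 16 and 12 against 49 and 15 (-0.97, adjusted p = 0.786). Cyyr1 had 45 and 5.7 against 160 and 55, without overlap (-2.43, SE 0.843, adjusted p = 0.376). Of 16 tested genes that Pax5 is known to repress none was called and 8 lay on each side of 0.

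Markers of the feeder cells were measured in every library. Of 17 stromal genes tested none was called, and Fn1 was the most abundant. Their normalized counts summed to 22252 and 36833 with K198R, 23455 and 44602 with Pax5WT, 17012 and 19972 with EV in Sirt7-/- cells and 18731 and 15060 with EV in wild-type cells. The second libraries of both forms thus stood above the rest. Of the 17 genes 15 lay below 0 with K198R against Pax5WT, with a median log2 fold change of -0.39 beside 0.01 for all genes. That median ran from -0.93 without the second K198R library and -0.86 without the first Pax5WT library to 0.07 without the first K198R library and 0.08 without the second Pax5WT library. Of 25 T and NK cell markers 9 passed the filter and none was called, among them Tcf7 at 5.6 and 10 normalized counts against 24 and 22. The defining T cell genes Cd3d, Cd3e and Cd3g did not pass the filter. Myeloid markers passed for 7 of 19 genes and erythroid and megakaryocyte markers for 2 of 11, with none called. The part of these cells in the changes of other genes was not tested.

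The same forms were compared in a second experiment, in Pax5-/- fetal liver-derived progenitors from C57BL/6 mice, which have Sirt7 and no Pax5 protein of their own. There 12910 of 35896 genes passed the same filter, 105 rose with K198R against Pax5WT, 0.813%, and 282 fell, 2.18%. Without single libraries of these groups the counts ran from 8 to 93 higher and from 12 to 494 lower, lowest without the second Pax5WT library. The amount of Pax5 transcript was not matched there, with 21162 and 16610 normalized counts with K198R against 6458 and 6152 with Pax5WT (log2 fold change 1.57, adjusted p = 0.00302). Of the 41 genes that fell in Sirt7-/- cells 39 were tested, 24 had a fold change below 0 and 6 fell by the same test. These were Il7r, Slc16a14, Capn2, Il33, Rtn4rl2 and Dpp4. In 15 of the 39 both K198R libraries lay below both Pax5WT libraries, as for 19.4% of all genes tested there. Il7r had 2019 and 1800 normalized counts with K198R against 3614 and 3058 with Pax5WT (log2 fold change -0.80, adjusted p = 0.0387).

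Of the 39, Ifi209 and Vpreb3, rose in Pax5-/- cells. Vpreb3 had 7165 and 6959 normalized counts with K198R, 4163 and 5200 with Pax5WT and 733 and 813 with EV (log2 fold change 0.60, adjusted p = 0.0482), and Ifi209 had 755 and 663, 224 and 226, and 15 and 16 (1.65, adjusted p = 0.00977). Both were thus far above EV with either form. Zfpm1 was at 4815 and 5740 against 4132 and 4036 (0.36, adjusted p = 0.130). Rag1 was called higher with K198R there, at 18291 and 18398 against 8938 and 8704 (1.06, adjusted p = 0.0364), while its Sirt7-/- value lay below 0. Of the 18 genes that rose in Sirt7-/- cells 12 were tested, 8 had a fold change above 0 and 1, Mt1, rose, with a log2 fold change of 2.82 (adjusted p = 0.00388). The groups did not overlap towards higher values in 5 of the 12, against 19.1% of all genes. For Mtor there was no difference past the threshold, at 2218 and 1818 normalized counts against 2161 and 2101 (-0.09, adjusted p = 0.904).

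**Figure D5:**
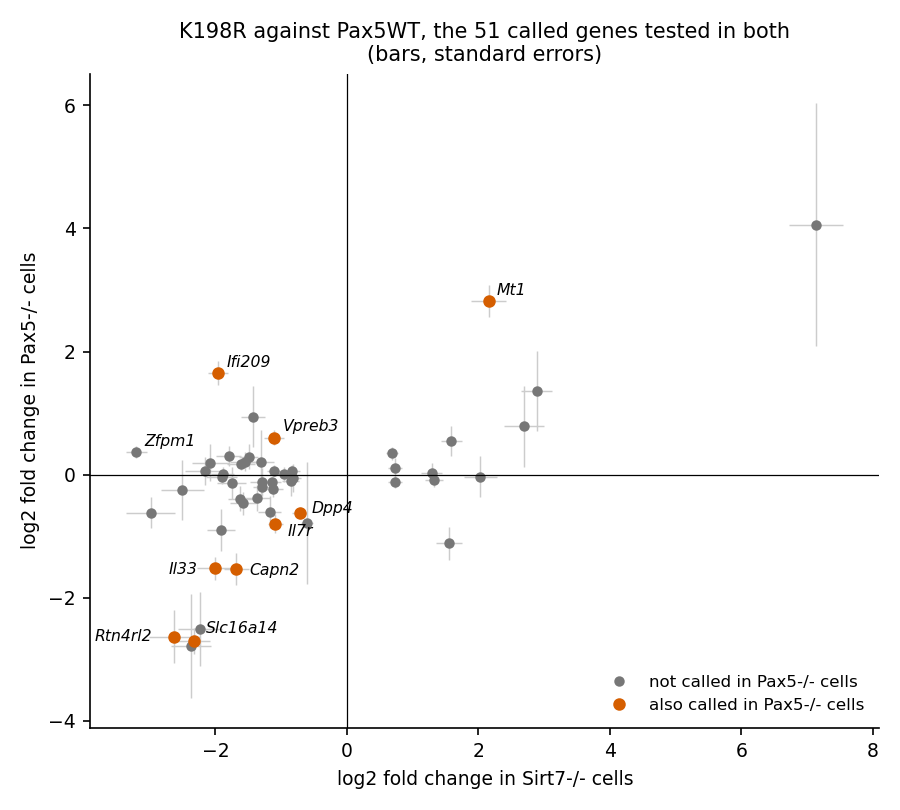
Log2 fold change of K198R against Pax5WT in Sirt7-/- cells (x axis) and in Pax5-/- cells (y axis) for the 51 genes called in Sirt7-/- cells and tested in both, with standard errors. The 9 genes in orange were also called in Pax5-/- cells, 7 of them (Mt1, Il7r, Slc16a14, Capn2, Il33, Rtn4rl2 and Dpp4) in the same direction and Ifi209 and Vpreb3 in the opposite one. The point at the upper right is Gm6361, listed at 0 in 1 Pax5WT library of the Pax5-/- cells.

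Genes that wild-type Pax5 changed in Pax5-/- cells were then read in the Sirt7-/- comparison, whose libraries took no part in choosing them. With Pax5WT against EV in Pax5-/- cells 299 genes rose, 2.32%, and 128 fell, 0.991%, and a log2 fold change of at least 1.5 in size left 168 and 29 genes. Of the 168 raised genes 146 were tested in Sirt7-/- cells, where 0 rose and 8 fell with K198R against Pax5WT, beside 0.136% and 0.310% of all genes. At an unadjusted p under 0.05, 12 were higher and 38 lower, beside 4.26% and 4.51%. Their median log2 fold change was -0.31 and 94 of 146 lay below 0, beside a median of 0.01 and 6371 of 13235 below 0 for all genes. Against EV in Sirt7-/- cells the median of these genes was -0.18 with Pax5WT and -0.38 with K198R. As a set they were thus not raised by Pax5WT in these cells. Without the first Pax5WT library the median between the forms was -0.12. The 8 genes that fell were Ifi209, Slc16a14, Mmp13, Adgrf1, Vpreb3, Tifa, Rtn4rl2 and Trmt9b. Among them Adgrf1 alone had a log2 fold change above 0 for Pax5WT against EV in Sirt7-/- cells (0.78). Rtn4rl2, related to the Nogo receptor, had 2.9 and 1.8 normalized counts with K198R and 26 and 14 with Pax5WT in Sirt7-/- cells, where EV had 135 and 122. Tifa, an adaptor of NF-kB signalling, had 2151 and 2759 against 6164 and 6401. Of the 29 lowered genes 14 were tested, none was called, 2 higher genes and 1 lower gene had an unadjusted p under 0.05, and the median was 0.14. That median was 0.0013 without the first Pax5WT library, 0.0021 without the second K198R library, where 0 were higher at that p, 0.27 without the first K198R library and 0.37 without the second Pax5WT library.

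Binding of each form was mapped with a Pax5 antibody by ChIP-seq in the Pax5-/- cells, not in Sirt7-/- cells. The deposited lists held 10646 and 11830 peaks for Pax5WT and 12158 and 13997 for K198R, of which 7908 and 9347 were in both replicates of a form. A peak of Pax5WT lay in the gene or within 5 kb before its start in 8 of the 18 genes that rose (44.4%, exact binomial 95% interval 21.5 to 69.2%), in 17 of the 41 that fell (41.5%, 26.3 to 57.9%) and in 36.9% of all genes tested. For K198R the shares were 6 of 18 (33.3%, 13.3 to 59.0%), 16 of 41 (39.0%, 24.2 to 55.5%) and 43.0%. Vpreb3 counted as having a peak for Pax5WT only, because its K198R peak in the first replicate began just past the end of the gene. Kif17 and Sh2d5, both among the 41, were counted through shared peaks. The intervals cover counting error only, and each holds the share of all genes. Of the 18 cholesterol genes 6 had a Pax5WT peak (33.3%) and 5 a K198R peak (27.8%).

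The peak upstream of Zfpm1, the first stretch printed above, was in all 4 lists. Its summit lay 713 bases before the start in the K198R list with a fold enrichment over input of 9.16 and 11.3 in the replicates, and 687 bases before it for Pax5WT with 7.94 and 10.1. The window lies in an intron of the overlapping model Gm20388 and holds no GCGTGAC on either strand. In Scin the peak printed above had fold enrichments of 5.52 and 8.17 with K198R and of 5.36 and 6.96 with Pax5WT, 31596 bases into the gene, in an intron. The letters GCGTGAC were in 346 of 7908 Pax5WT summit windows of 101 bases (4.38%) and in 359 of 9347 K198R windows (3.84%). They were in 3.74% of the longer stretches of 300 bases around starts of genes tested. Among summit windows at called genes only some in Scin and Car2 held them, so the Scin stretch is not typical of these peaks. Vpreb3 had a peak at its 3' end in all 4 lists, with summits just past the end of the gene and fold enrichments of 27.8 and 12.5 for Pax5WT and of 12.2 and 20.0 for K198R. Tnfsf8 had one at its start with both forms, at 10.9 and 9.83 for Pax5WT and 10.6 and 8.10 for K198R. At Mtor peaks of both forms lay nearly 4 kb before the start, and at Gnao1 they lay within 500 bases after it. Peaks of both replicates were listed for K198R alone at Bmpr1a, Klhl6 and Tifa and for Pax5WT alone at Ext1, Hook1, Nt5c2, Car3 and Dnm3, without a test of the difference in enrichment.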

How the data were processed

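RNA was measured in 8 libraries of the Sirt7-/- experiment and 8 of the Pax5-/- experiment (2 for each of 4 groups in each table). The authors quantified reads with Salmon on mm10 with GC bias correction, used Tximeta to sum estimates by gene, and deposited the counts after scaling by the DESeq2 median of ratios, used here as signal values per gene. Only 21.63 to 35.78% of low values in a library fell on whole steps of 1 library-wide unit (tolerance 0.02 of a step), so reads were not recovered and depth is unknown. For ChIP-seq the authors aligned with Bowtie2 and called peaks over input with MACS2. The deposited lists give fold enrichment, a ratio, and −log10 of the q-value.

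Genes that reached a normalized count of 10 in 2 or more of the 4 libraries compared were tested on log2(normalized count + 1) with limma 3.58.1 in R 4.3.3, all 8 libraries and 4 groups of a table in 1 fit with a variance trend, and p-values were adjusted by the Benjamini-Hochberg method over all 13235 (or 12910) genes. A gene was called at an adjusted p under 0.05. Levels were not compared across tables. With 2 libraries against 2, an exact permutation test cannot give a p below 0.333. Genes described by size were the 10 called genes with the largest change each way, with a mean of at least 50 and no overlap. Gm6361 was left out of this choice as a pseudogene. Pax5, Sirt7, genes the study names and, from each of 29 gene lists, its called members or otherwise up to 2 members with the largest changes were added, and other called genes are given by name. Some genes that this rule gives are not reported here. The study's genes and the lists were chosen with earlier results of these data known, and genes named outside this rule were chosen after their values were seen. Gene models are those of GENCODE M21, which also named 1646 of 1745 rows without a symbol. Peaks in both replicates (overlap of at least 1 base) were assigned to genes they overlap or precede by up to 5000 bases. Peak names in the list of K198R replicate 2 carry another replicate number, and it was used as labelled. Printed genome sequence is GRCm38, and the promoter is from RefSeq (GRCm38.p6).

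On simulated data with 200 changed genes of 13235, the test recovered 25.4% of log2 changes of 1, 83.6% of 2 and 86.4% of 3, with 4 false calls. In the simulation the spread of a gene did not depend on its level, and same-numbered libraries did not vary together. These rates therefore need not hold for the real libraries. Alternatives changed the pseudocount, filter, scaling, variance model, libraries, replicate block and peak rules. Sorted cells, the K198Q form and input libraries were not used here.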

Additional observations from a re-analysis of the deposited data

Results flagged for a closer look

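At 9 genes called in Sirt7-/- cells every library moved one way with K198R against Pax5WT there and the opposite way in Pax5-/- cells, and the difference between the cell populations was not tested. These were 8 of the 39 lower genes and 1 of the 12 higher genes tested in both, close to or below the share of all genes whose groups did not overlap in Pax5-/- cells (19.1% towards higher and 19.4% towards lower values). The count is therefore no result about the called genes. Of them 8 fell in Sirt7-/- cells and had a positive log2 fold change in Pax5-/- cells, of 0.36 for Zfpm1, 1.65 for Ifi209, 0.30 for Sh2d5, 0.94 for Adgrf1, 0.17 for Hook1, 0.60 for Vpreb3, 0.066 for Klhl6 and 0.21 for St7. Ext1 rose in Sirt7-/- cells and had -1.12 in Pax5-/- cells. Of these, Ifi209 and Vpreb3 passed the limma test in both populations, and the others did not pass it in Pax5-/- cells. The populations differ in Sirt7, in endogenous Pax5, in strain and tissue of origin and in the ratio of Pax5 transcript between the forms, and these cannot be told apart.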

How the results depend on the processing

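No gene called between K198R and Pax5WT in Sirt7-/- cells reversed its direction in any alternative run. Against 18 called higher and 41 lower, counts over 1.5 times apart were 30 higher with a pseudocount of 10, 32 higher after quantile normalization, 19 lower without the filter, 21 lower without the variance trend, and 3 higher and 5 lower with only the 4 libraries compared. Without single replicates they ran from 1 to 9 higher and from 1 to 6 lower (in Pax5-/- cells from 8 to 93 and from 12 to 494), where a lone library was assumed to vary like the other groups. Zfpm1 stayed called in every alternative. Apart from these counts, the share of higher calls moved from 30.51% to 40.62% without the filter and to 44.74% without the trend, and it was 33.33%, 50.0%, 69.23% and 53.85% of the few calls left without the first or second K198R and the first or second Pax5WT library, so that the excess of lower calls did not hold without either Pax5WT library. The cause of these shifts was not tested.

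The labels number the libraries of each group 1 and 2, and same-numbered libraries deviated together from their group means, with correlations over genes of 0.171 to 0.481 over 6 pairs of groups, but no label says what a number shares. The study's methods state that replicates were made on different days. A fit with the replicate number as a block called 124 genes higher and 188 lower, with all 59 called genes among them, and 344 higher and 668 lower in Pax5-/- cells. Under the block 8 cholesterol genes and 4 of 13 immature and mature B cell markers were called higher, and 3 of the 146 genes raised by Pax5WT in Pax5-/- cells were called higher and 18 lower. The block also called 2 homing genes, 2 genes that Pax5 is known to repress, 1 pro-B cell marker and 1 Pax5-activated gene higher. It called lower 2 genes each of V(D)J recombination, homing, the IL-7 receptor pathway and the pro-B cell markers, and 1 gene each of the early B lineage transcription factors, Pax5-activated genes, surrogate light chain and pre-BCR genes, interferon-stimulated genes, plasma cell markers, glucose uptake genes and the genes lowered by Pax5WT in Pax5-/- cells.

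The share of genes that fell with a peak moved to 14.6% for Pax5WT with peaks within 1 kb of the start only (27.0% of all genes), and to 63.4% for both forms with peaks of either replicate (55.8% of all genes for Pax5WT and 61.4% for K198R). Among genes not called, Tet1 turned to 0.039 on the log2 scale after quantile normalization. Without single replicates the log2 fold change ran from -1.90 to 0.65 for Ddx3y, from -2.74 to 0.64 for Eif2s3y, from -0.94 to 0.44 for Itga2b, from -0.16 to 0.074 for Pax5, from -1.63 to 1.06 for Ly6c2, from -0.70 to 0.69 for Tet1, from -1.86 to 0.12 for Cxcr5, from -0.051 to 2.06 for Etv4, from -0.26 to 0.062 for Sirt7, from -1.10 to 0.16 for Chac1 and from -0.12 to 0.51 for Kat2b. All other named genes that were not called kept their sign.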
